A study of Canis lupus familiaris with 13 samples.

Results

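The extracellular matrix of the heart is the meshwork around its muscle cells, made mainly by fibroblasts and by the cells of vessel walls. Fibrillar collagens carry tension, basement membrane collagens and laminins form the sheet on which muscle and endothelial cells rest, and glycoproteins and small proteoglycans shape the fibrils and the signals held between them. Lysyl oxidases cross-link collagen, metalloproteinases of the MMP and ADAMTS families cut the matrix, TIMPs inhibit those proteases, and transforming growth factor beta is a main inducer of matrix genes in fibroblasts of the heart.

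The matrix genes described here were those that a canine Affymetrix array names as a collagen, laminin, thrombospondin, lysyl oxidase, MMP, ADAMTS protein or TIMP, together with FN1, SPARC, DCN, LUM, BGN, CCN2 and TGFB1. A probe set, the group of short probes that reads 1 transcript, counted when it carried a single gene symbol of this kind. The rule took 52 of 6540 named genes and 108 of 10549 probe sets. Each gene was represented by its probe set of highest mean signal; 30 genes had 1 probe set and 22 had several, up to 7. LUM, LAMA2, TIMP4, ADAMTS1, ADAMTS5, THBS4, LOX and LOXL1 were not analysed here.

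RNA of dog heart tissue had been hybridised to 13 arrays, 1 per sample, in 4 groups. The control group was 3 samples of mongrel heart, named P1, P4 and P9, for which the labels give no treatment. Dilated cardiomyopathy, in which the ventricle widens and contracts weakly, was represented by 3 samples of Doberman heart (K, L and R) and 4 of Boxer heart (1 to 4). The last group was 3 samples of mongrel heart (LV01, LV02 and LV04) that had been paced, that is driven by an electrical stimulus, a procedure used in dogs to bring on heart failure. No unaffected Doberman or Boxer was among the samples, so breed and disease cannot be told apart. The rate and length of pacing, the ages and the region of the heart are not given in the sources used here. Dobermans, Boxers and hearts counted below are these samples; the names do not say that each was a separate animal, so the p-values measure the spread between these samples, which may be technical.

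The deposited values are MAS5 signals, a brightness on a linear scale. Changes below are differences between group means of log2(signal + 16), each with its standard error (SE), and understate the change of dim probe sets. They were tested in limma with 1 mean per group over all 13 arrays, and p-values were adjusted by the Benjamini-Hochberg method over all 14302 tested probe sets, with 0.05 as the threshold. A gene was tested when the mean log2 value of its probe set reached 6.95, a signal of 108, and 33 of the 52 matrix genes did so. ADAMTSL3 lay just inside this limit at 7.01, through its Doberman signals, and BGN and THBS2 just outside at 6.83 and 6.82. Counts and shares of Doberman calls below include ADAMTSL3. The 3 comparisons with control hearts share the same control arrays, so a gene that moved in more than 1 of them has not been measured independently. Signals of different probe sets are not comparable with each other.

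Of 11 cardiomyocyte markers 10 were on the array and all 10 passed the filter, with summed signals of 185576 to 470385 per array. Dobermans L and R stood apart. Their signal at the 3' end of GAPDH over that at its 5' end, a measure of RNA integrity, was 2.10 and 3.62, against 1.08 in Doberman K and 0.967 to 1.09 on all other arrays. The same ratio of actin, in log2, set only R apart, at -0.08. It was -1.92 in L, -1.90 in K, -1.97 to -1.56 in the Boxers, -3.17 to -2.34 in the controls and -2.56 to -2.20 in the paced hearts. The median signal of an array was 132 to 146 in controls and Boxers, 160 in K, 234 and 220 in L and R, and 208 to 219 in the paced hearts. Centring each array on its median moved the median change of all 5240 tested genes from 0.04 to -0.40 for Dobermans against controls, from -0.04 to -0.55 for paced hearts, from 0.04 to -0.47 for Dobermans against Boxers and from -0.02 to 0.05 for Boxers against controls. Counts of calls under that scaling are therefore given beside those on the deposited scale, for the matrix genes and for the related lists. Shares of all genes called are given on the deposited scale, and for pacing also without the filter. Counts under other settings have no such share beside them.

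In the Dobermans 8 matrix genes rose against controls and 0 fell. The 8 were the cross-linking enzyme LOXL2, the collagen genes COL22A1, COL2A1 and COL5A1, the ADAMTS-like ADAMTSL3, the inhibitor TIMP2, the thrombospondin THBS1 and the proteoglycan DCN. In tissue samples more cells of a type and more RNA per cell cannot be told apart. The 8 made up 24.2% of the 33 tested; among all 5240 genes 26.0% were called, 11.9% as higher and 14.1% as lower. The median change of the 33 was 0.38 against 0.04 for all genes. A change above 0 was found for 20 of the 33 and for 2751 of all 5240 genes. Centred on array medians the split was 4 higher and 1 lower: LOXL2, COL22A1, ADAMTSL3 and COL2A1 still passed, LAMC1 was lower, and TIMP2 (0.69), THBS1 (0.57), COL5A1 (0.42) and DCN (0.23) did not pass. The count was 2 without Dobermans L and R, where THBS1 (1.57, adjusted p = 0.0379) and the growth factor CCN2 (1.47, adjusted p = 0.0272) passed. It was 14 without K (10 higher and 4 lower), 4 without L, 5 without control P9, 0 when the GAPDH ratio entered the model, and 0 when the 6 arrays were modelled by themselves.

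No matrix gene passed in the Boxers against controls by limma. An unadjusted p under 0.05 was reached by 8 of the 33 and by 446 of all 5240 genes. After adjustment 0.0573% of all genes passed, 0.0191% as higher and 0.0382% as lower. The median change of the matrix genes was 0.21, against -0.02 for all genes. Of the 33, 24 lay above 0, as did 2507 of all 5240 genes. COL12A1, THBS1 and LOXL2 had the smallest p-values.

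In the paced hearts LOXL2, the laminin chain LAMB1 and the collagen COL17A1 rose, and ADAMTSL3 fell. These 4 made up 12.1% of the 33, while 9.24% of all genes were called, 5.19% as higher and 4.05% as lower. The median change was 0.05 for the matrix genes and -0.04 for all genes. The split depended on scaling, at 2 higher and 2 lower after quantile normalization and 0 higher and 8 lower after median centring, which shared only the call of ADAMTSL3. Median centring also lowered the median change of all genes, as given above. The count was 1 without control P4 or without LV04, and 2 without P1 or without LV02. Modelling the 6 arrays by themselves gave 8 (4 higher and 4 lower).

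Dobermans exceeded Boxers in 5 matrix genes (ADAMTSL3, COL2A1, COL22A1, LOXL2 and COL5A1) and lay below them in 0. The 5 were 15.2% of the 33, against 34.2% of all genes, of which 16.8% were higher and 17.4% lower. Both medians were 0.04. After median centring, which also lowered the median change of all genes, the split was 3 higher and 8 lower. The count was 14 without Doberman K (8 higher and 6 lower), 3 without L, 3 without Boxer 2, and 0 without both L and R.

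**Figure D1:**
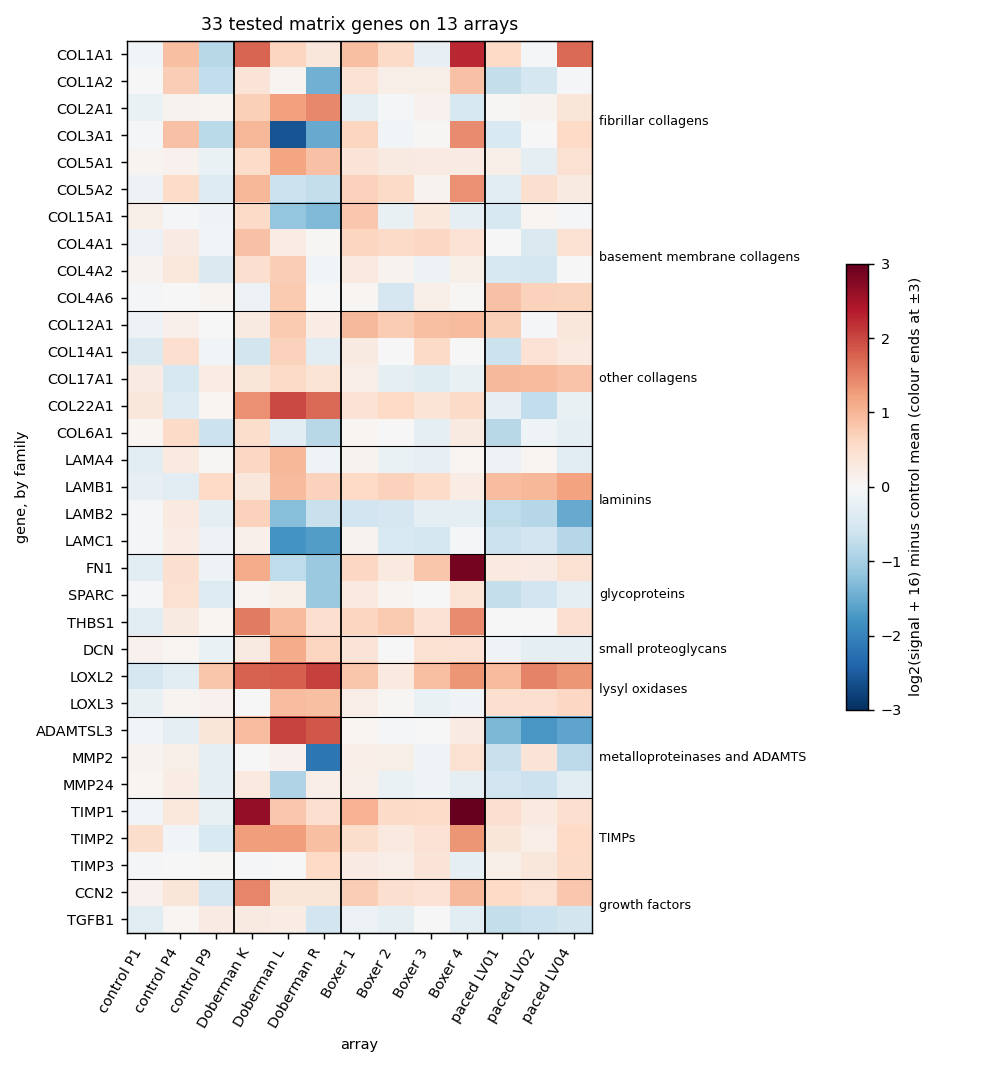
Each of the 33 tested matrix genes (rows, by family) on each of the 13 arrays (columns), as log2(signal + 16) minus the control mean of that gene; colours end at 3 in either direction. LOXL2 is high on all 3 Doberman arrays, COL3A1 and LAMC1 are low in Dobermans L and R and not in K, and TIMP1 is high in Doberman K and Boxer 4.

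**Figure D2:**
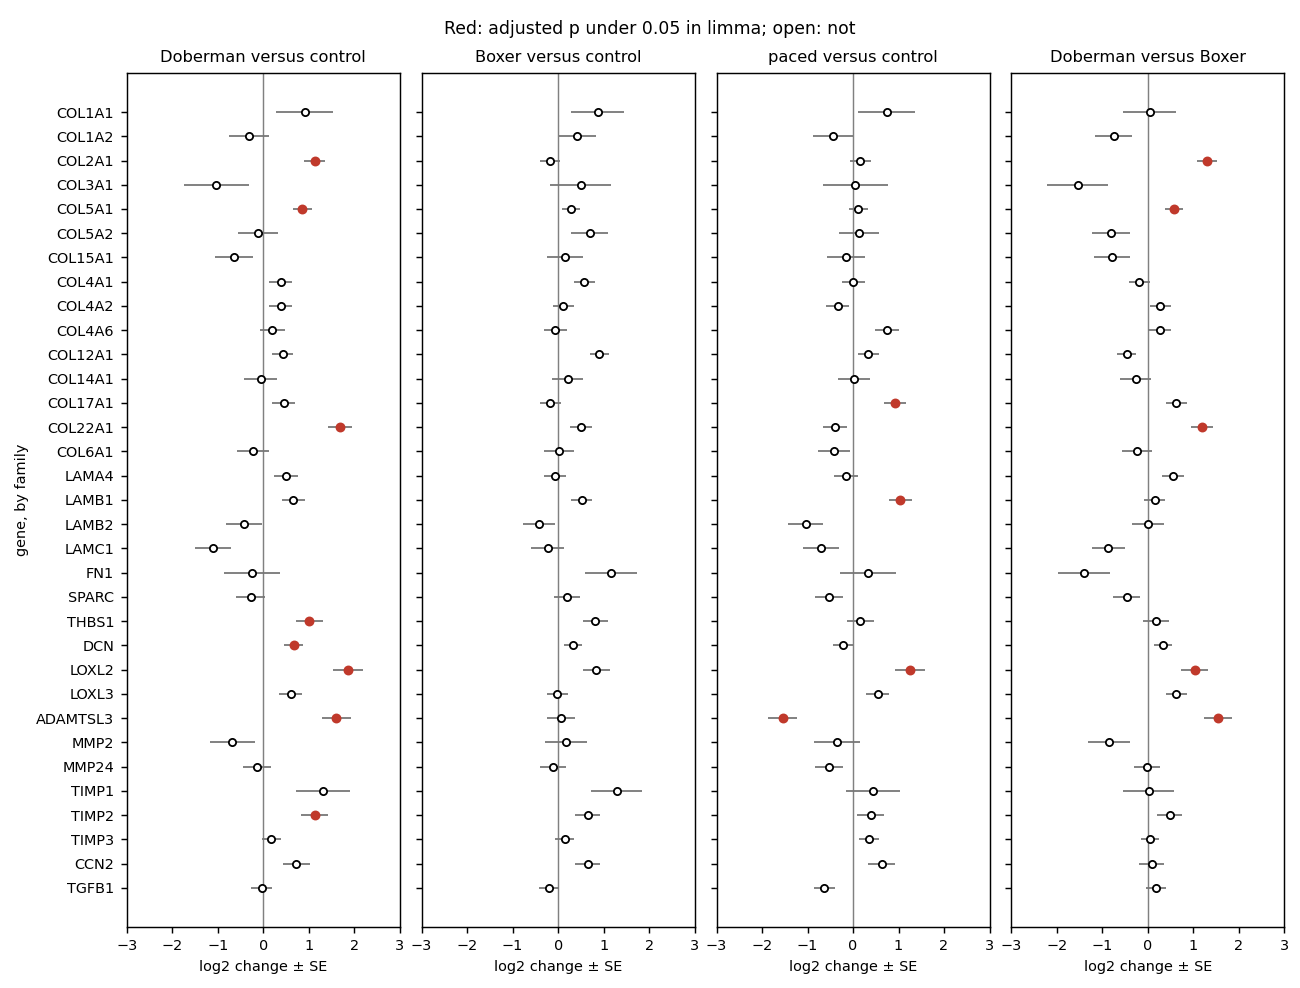
Log2 change with its SE for the 33 genes (rows) in the 4 comparisons (panels); filled red points had an adjusted p under 0.05 in limma. The 8 red points of the Doberman panel all lie above 0, the Boxer panel has none, and in the paced panel ADAMTSL3 is the 1 red point below 0.

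On single arrays the median of the 33 genes, taken from the control mean, was 0.54, 0.64 and 0.21 in Dobermans K, L and R, with 29, 25 and 18 genes above 0. In Boxers 1 to 4 it was 0.38, 0.10, 0.18 and 0.27, with 30, 21, 20 and 24 genes above 0. In LV01, LV02 and LV04 it was -0.11, 0.00 and 0.34. The controls themselves lay at -0.06, 0.22 and -0.15, so R, 3 of the Boxers and the paced arrays other than LV04 were within or near the span of the controls. Over all genes these medians ran from -0.04 to 0.10.

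Type I collagen, the main tension-bearing fibril of the heart, did not pass in any comparison. COL1A1, its alpha 1 chain, had signals of 494, 993 and 288 in controls P1, P4 and P9, of 1798, 823 and 665 in Dobermans K, L and R, of 986, 784, 441 and 2576 in Boxers 1 to 4 and of 795, 499 and 1738 in the paced hearts. K, Boxer 4 and LV04 were high and every group overlapped the controls on this probe set. The changes were 0.91 ± 0.62 (SE; adjusted p = 0.272), 0.87 ± 0.58 (adjusted p = 0.806) and 0.74 ± 0.62 (adjusted p = 0.458). COL1A2, the alpha 2 chain, had control signals of 1889 to 5291, Doberman signals of 1144 to 4123, Boxer signals of 3559 to 5850 and paced signals of 1928 to 3014, with changes of -0.32 ± 0.44, 0.42 ± 0.41 and -0.43 ± 0.44. On a further probe set of COL1A2 these were 0.70 ± 0.52, 1.14 ± 0.49 and 0.04 ± 0.52. On another they were 1.07 ± 0.42, 0.40 ± 0.39 and -1.28 ± 0.42 (adjusted p = 0.0602 in limma for pacing). There the paced hearts (33.4 to 80.6) lay below the controls (136 to 147). A further tested probe set of COL1A1 had changes of 1.35 ± 0.59, 0.97 ± 0.55 and 1.27 ± 0.59. Its paced signals of 373, 364 and 899 lay above the controls at 143 to 238. None of these changes passed.

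COL3A1, the chain of the finer type III fibrils, divided the Dobermans on its chosen probe set and not on others. Its chosen signal was 2217 in K but 171 in L and 381 in R, against 1056, 2049 and 625 in the controls. The Boxers stood at 1737, 1054, 1131 and 2982, and the paced hearts at 806, 1108 and 1679. L and R lay below every other array and K above every control, and the change was -1.03 ± 0.71 (adjusted p = 0.28) for the Dobermans, 0.50 ± 0.67 for the Boxers and 0.05 ± 0.71 for pacing. Without K it was -2.04 and passed (adjusted p = 0.00635). With K alone it was 0.99 (adjusted p = 0.429). A further tested probe set of COL3A1 read 409, 451 and 362 in K, L and R against 407, 518 and 314 in the controls, with a change of 0.00 ± 0.27. On another, under the filter, all 3 Dobermans (178, 227 and 198) lay above the controls (17.3 to 89.7).

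COL5A1 and COL5A2 are chains of type V collagen, which starts fibril assembly. COL5A1 rose in the Dobermans by 0.86 ± 0.21 (adjusted p = 0.0159), from 964, 1004 and 790 in the controls to 1338, 2086 and 1690 in K, L and R, with no overlap. Boxers lay at 1194, 1104, 1090 and 1088, between the 2 groups, and the Dobermans exceeded them by 0.58 ± 0.20 (adjusted p = 0.039). With K alone these differences were 0.54 and 0.26 and neither passed, and after median centring they were 0.42 and 0.07. The call against controls was lost without L or P9, and that against Boxers without L, R or any 1 of the 4 Boxers. COL5A2, its partner chain, was at 930, 1540 and 782 in the controls, 2087, 655 and 629 in K, L and R and 1124 to 2707 in the Boxers, and its changes of -0.12 ± 0.44 and 0.69 ± 0.41 did not pass. Its 3 further tested probe sets had Doberman changes of 1.28 ± 0.56, 0.02 ± 0.57 and 0.28 ± 0.55, none of which passed, and L read 304 on the first of them against 29.6 to 142 in the controls.

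COL2A1, the main collagen of cartilage, rose in the Dobermans by 1.13 ± 0.23 (adjusted p = 0.00901). The signals were 670, 957 and 1107 in K, L and R, against 345, 436 and 427 in the controls and 324, 386, 437 and 280 in the Boxers. All 3 Dobermans exceeded every other array, with paced hearts at 408, 431 and 518. The difference from the Boxers was 1.30 ± 0.22 (adjusted p = 0.00296), and with K alone the changes were 0.72 (adjusted p = 0.178) and 0.90 (adjusted p = 0.0922). Another 2 probe sets of COL2A1 lay under the filter and had Doberman signals of 17.3, 119 and 63.4 in the first and 80.5, 50.8 and 10.8 in the second, which overlap the controls.

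Fibrillar collagens as a family gave 2 calls of 6 tested genes in the Dobermans, both higher, and 0 in the Boxers and in the paced hearts. Among all genes 26.0% were called in the Dobermans, 11.9% as higher, with 0.0573% in the Boxers and 9.24% in the paced hearts. Counts of the other families below are to be set against the same shares. The median changes of the fibrillar collagens were 0.37 in the Dobermans, 0.46 in the Boxers and 0.13 in the paced hearts. After median centring the Doberman and paced medians turned to -0.07 and -0.38 and the Boxer median was 0.53.

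**Figure D3:**
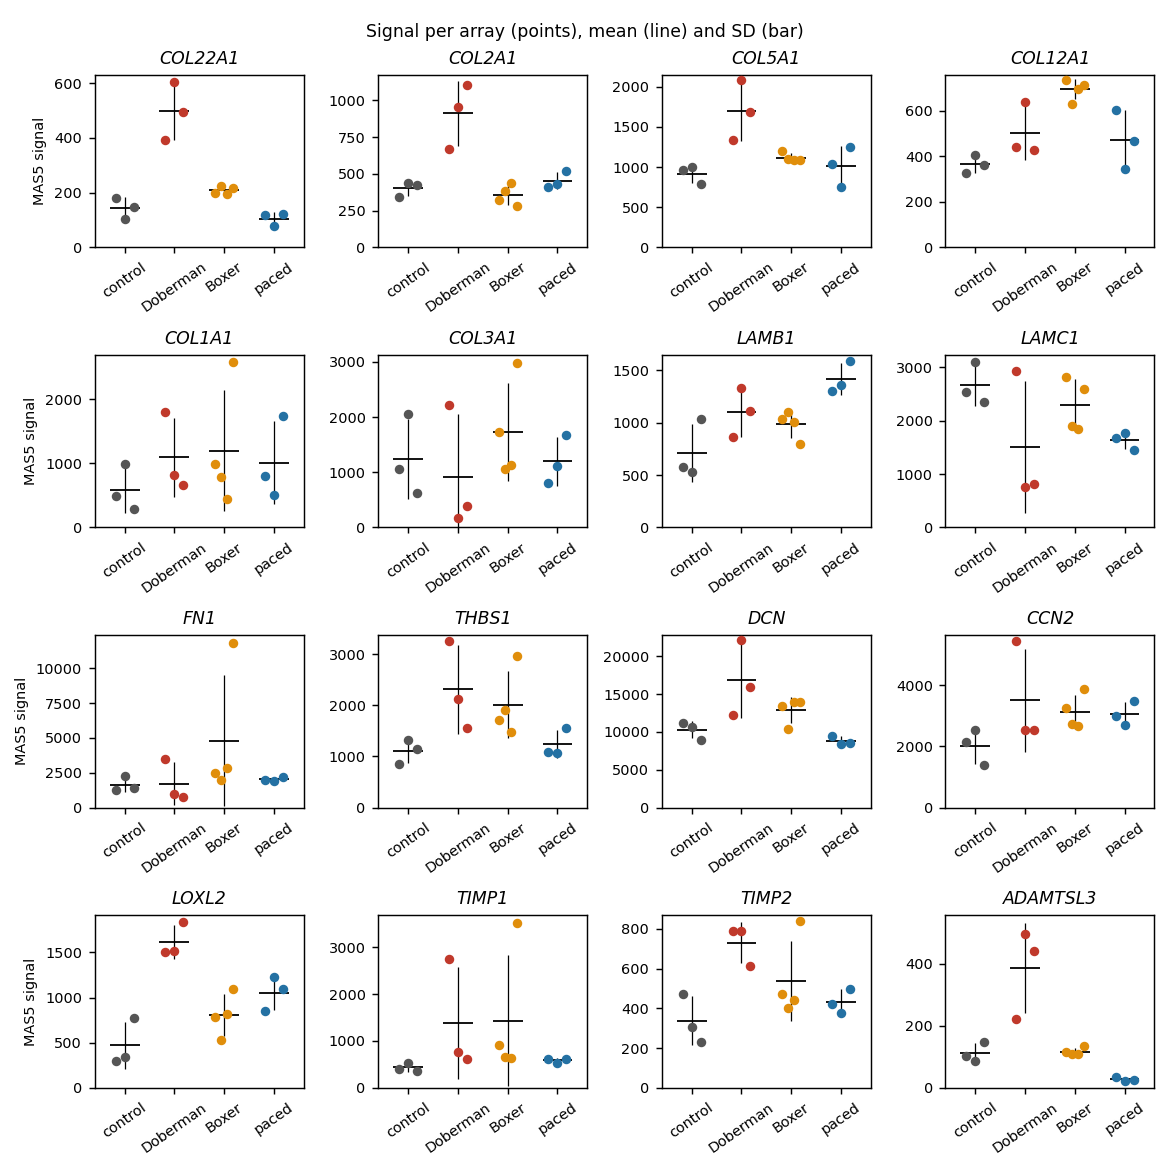
MAS5 signal of 16 matrix genes on each array (points, linear axis from 0), with the group mean (horizontal line) and SD (vertical bar) for 3 controls, 3 Dobermans, 4 Boxers and 3 paced hearts. The Doberman points of COL22A1, COL2A1 and LOXL2 lie above every control, the 4 Boxer points of COL12A1 (632 to 734) lie above the controls (329 to 407), and the paced points of ADAMTSL3 lie below them.

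Basement membrane collagens gave no call in any of the 4 comparisons, with 4 of 7 genes tested. COL4A1 and COL4A2 are the chains of the collagen IV network that underlies most cells. COL4A1 had signals of 4135, 5521 and 4417 in the controls, 8630, 5425 and 4777 in the Dobermans, 7327, 6973, 7199 and 6281 in the Boxers and 4694, 3430 and 6390 in the paced hearts. On this probe set all 4 Boxers lay above all 3 controls, and their change was 0.57 ± 0.23 (unadjusted p = 0.0277 in limma, adjusted p = 0.61). In the Dobermans it was 0.38 ± 0.25 and with pacing 0.01 ± 0.25. On each further tested probe set of COL4A1 the Boxers overlapped the controls, with changes of 0.11 ± 0.24 and 0.54 ± 0.23. In the same order the changes were 0.18 ± 0.26 and 0.00 ± 0.25 in the Dobermans and -0.52 ± 0.26 and 0.02 ± 0.25 with pacing. COL4A2 had changes of 0.38 ± 0.25, 0.11 ± 0.23 and -0.34 ± 0.25, and its groups overlapped the controls throughout.

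COL15A1, which anchors basement membranes to the fibrils beneath, was again split among the Dobermans. It stood at 611 in K and at 174 and 153 in L and R, against 463, 394 and 370 in the controls and 329 to 722 in the Boxers. The change of -0.64 ± 0.42 did not pass, and without K it was -1.24 (adjusted p = 0.00471). COL4A6, a chain of smooth muscle basement membranes, was at 415, 366 and 358 in the paced hearts and at 210, 216 and 233 in the controls. These groups did not overlap, and the change was 0.75 ± 0.27 (adjusted p = 0.0842), which passed at 0.0171 when the 6 arrays were modelled by themselves.

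Among the other collagens, COL22A1 rose in the Dobermans. This collagen lies at tissue junctions such as that of muscle and tendon. Its signals were 393, 605 and 496 in K, L and R, 181, 105 and 147 in the controls, 197, 223, 193 and 218 in the Boxers and 117, 78.7 and 120 in the paced hearts. Dobermans exceeded every other array, and the Boxers lay just above the controls. The change was 1.69 ± 0.26 against controls (adjusted p = 0.00338) and 1.18 ± 0.24 against Boxers (adjusted p = 0.00576). With K alone these were 1.38 (adjusted p = 0.0507) and 0.87 (adjusted p = 0.161). In the Boxers the change was 0.51 ± 0.24 (adjusted p = 0.686) and in the paced hearts -0.40 ± 0.26 (adjusted p = 0.334), the latter passing as lower after quantile normalization (-0.92, adjusted p = 0.0284).

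COL12A1, a collagen that bridges fibrils, had the smallest p-value of the matrix genes in the Boxers. Its signals were 734, 632, 698 and 716 in Boxers 1 to 4, 329, 407 and 361 in the controls, 443, 641 and 429 in the Dobermans and 606, 346 and 466 in the paced hearts. The Boxers varied little and lay above all controls, with a change of 0.90 ± 0.21 (unadjusted p = 8.17e-04 in limma, adjusted p = 0.299). It passed when the 7 arrays were modelled by themselves (adjusted p = 0.0388) and with array weights (adjusted p = 0.024). Changes in the Dobermans and paced hearts were 0.43 ± 0.23 and 0.33 ± 0.23, and neither passed.

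COL17A1, a transmembrane collagen best known from skin, rose in the paced hearts by 0.92 ± 0.25 (adjusted p = 0.0292). The signals were 351, 346 and 324 in LV01, LV02 and LV04 against 208, 119 and 203 in the controls, 224, 265 and 235 in the Dobermans and 199, 137, 130 and 145 in the Boxers. Paced hearts lay above all other arrays. The call was lost without P4 or any 1 of the 3 paced arrays, and under quantile normalization and median centring. COL6A1, a chain of the beaded filaments around muscle cells, and COL14A1, a fibril-associated collagen, did not pass. On their chosen probe sets the changes ran from -0.42 ± 0.35 to 0.21 ± 0.34 in the 3 comparisons with controls, and all groups overlapped the controls. A further tested probe set of COL14A1 read 248, 175 and 190 in K, L and R, below the controls at 270 to 438. Its Doberman change was -0.72 ± 0.29 (adjusted p = 0.0771 in limma).

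Laminins, the cross-shaped trimers of basement membranes, gave 1 call in the comparisons with controls. LAMB1, the beta 1 chain, rose in the paced hearts by 1.04 ± 0.25 (adjusted p = 0.0177), to 1305, 1365 and 1592 from 574, 530 and 1031. It stood at 862, 1331 and 1114 in the Dobermans and 1033, 1104, 1011 and 797 in the Boxers, where the changes of 0.66 ± 0.25 (adjusted p = 0.064) and 0.52 ± 0.23 (adjusted p = 0.667) did not pass. Control P9 was high beside P1 and P4. Without P9 the Doberman change was 0.96 and passed (adjusted p = 0.0259), and the paced call was lost without P1, without P4, without LV04 and after median centring.

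LAMB2, the beta 2 chain of mature muscle, and LAMC1, the gamma 1 chain shared by most laminins, stood lower in the paced hearts without passing. LAMB2 was at 298, 277 and 172 against 506, 634 and 427 in the controls, with a change of -1.04 ± 0.39 (adjusted p = 0.0931). LAMC1 was at 1679, 1768 and 1445 against 2535, 3092 and 2350, with a change of -0.70 ± 0.39 (adjusted p = 0.257). Neither pair of groups overlapped, and both genes passed when the 6 arrays were modelled by themselves, at adjusted p of 0.0164 and 0.0128. In the Dobermans LAMC1 was at 2936 in K and at 755 and 819 in L and R, and its change of -1.10 ± 0.39 (adjusted p = 0.0521) became -1.73 (adjusted p = 3.85e-05) without K. It also passed with a pseudocount of 64, array weights or median centring. A further probe set of LAMC1 read 3125, 799 and 804 in K, L and R, 1531, 1834 and 1293 in the paced hearts and 2969, 3376 and 2219 in the controls, so L, R and the paced hearts again lay below all controls.

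LAMA4, the alpha 4 chain of vessel walls and muscle, had control signals of 3767, 5850 and 4906 and Doberman signals of 7366, 9540 and 4347. The change of 0.50 ± 0.26 (adjusted p = 0.157) did not pass, and without R it was 0.81 (adjusted p = 0.0355). Boxer and paced values overlapped the controls on this probe set. The further tested probe sets of LAMA4 all went the other way in the Dobermans, at -1.45 ± 0.49, -0.53 ± 0.38, -1.29 ± 0.61 and -0.39 ± 0.41. On them L read 564, 324, 55.8 and 191, each below all controls. The laminin family had median changes of 0.04 in the Dobermans, -0.15 in the Boxers and -0.42 in the paced hearts, and of -0.40, -0.08 and -0.93 after median centring.

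**Figure D4:**
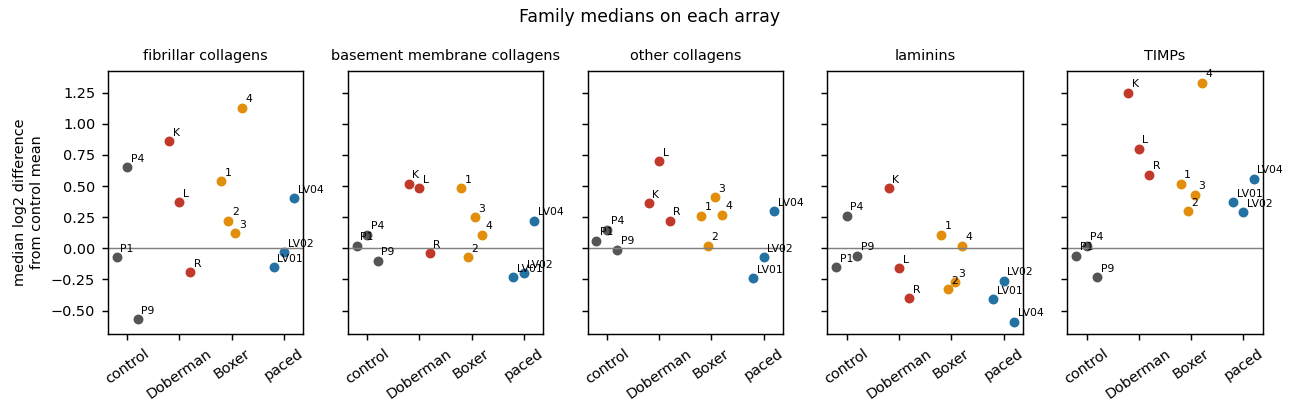
Median log2 difference from the control mean over the tested genes of 5 families (panels) on each array (points, labelled by sample name). Fibrillar collagens are high in Boxer 4 (1.13) and Doberman K (0.86) and span -0.57 to 0.65 among the controls, the laminin points of the paced hearts lie at -0.41, -0.26 and -0.59, and TIMP points of all diseased and paced hearts lie above those of the controls.

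Of the matrix glycoproteins only THBS1 passed. Thrombospondin 1, which can activate latent transforming growth factor beta, rose in the Dobermans by 1.01 ± 0.30 (adjusted p = 0.0305), to 3256, 2126 and 1550 in K, L and R from 860, 1322 and 1137. Boxers stood at 1712, 1900, 1469 and 2961, all above the controls, with a change of 0.82 ± 0.28 (adjusted p = 0.512). Paced hearts, at 1088, 1076 and 1551, overlapped the controls (0.16 ± 0.30). The Doberman call held with K alone and was lost without L, P1 or P9, with array weights and after median centring.

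FN1, fibronectin, the adhesive protein laid down early in wound repair, was at 11820 in Boxer 4. Boxers 1 to 3 stood at 2481, 1968 and 2877, the controls at 1266, 2255 and 1443, and the paced hearts at 1975, 1907 and 2196. Doberman K stood at 3512, L at 946 and R at 735. K thus lay above and L and R below all controls, and its changes were -0.25 ± 0.61 for the Dobermans, 1.16 ± 0.57 (adjusted p = 0.699) for the Boxers and 0.33 ± 0.61 for pacing. SPARC, a collagen-binding protein, was at 9705, 13636 and 7567 in the controls, 10564, 11348 and 4617 in the Dobermans, 9866 to 13229 in the Boxers and 6080 to 8150 in the paced hearts, and passed in no comparison on this probe set.

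DCN encodes decorin, the small proteoglycan that coats collagen fibrils. It rose in the Dobermans by 0.67 ± 0.21 (adjusted p = 0.0368), to 12285, 22124 and 15968 in K, L and R from 11228, 10702 and 8985. K lay just above the highest control. The call was lost in 5 of the 6 fits that left out 1 sample, all but the one without K, and after median centring (0.23); with K alone the change was 0.26. A further probe set of DCN went the other way, at -0.78 ± 0.28 (adjusted p = 0.0558). The Boxers were at 13426, 10408, 13985 and 13955 (0.32 ± 0.20) and the paced hearts at 9496, 8427 and 8517 (-0.22 ± 0.21).

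LOXL2, a lysyl oxidase-like enzyme that cross-links collagen, rose in both the Dobermans and the paced hearts against the shared controls. Signals were 295, 344 and 769 in the controls, 1499, 1515 and 1833 in K, L and R, 847, 1223 and 1094 in LV01, LV02 and LV04 and 779, 528, 814 and 1096 in Boxers 1 to 4. The 3 Dobermans stood above every other array, the paced hearts above every control, and Boxer 2 overlapped the controls. Changes were 1.87 ± 0.33 (adjusted p = 0.00538) in the Dobermans, 1.25 ± 0.33 (adjusted p = 0.0249) in the paced hearts and 0.84 ± 0.30 (adjusted p = 0.555) in the Boxers. Dobermans exceeded Boxers by 1.03 ± 0.30 (adjusted p = 0.0213). Control P9 was high beside P1 and P4. The Doberman change ran from 1.43 to 2.28 over its 16 alternatives and passed whichever single sample was left out; with K alone it was 1.77 (adjusted p = 0.0684). The paced call was lost without P1, P4, LV02 or LV04, and the call against Boxers without L, R or Boxer 2. After median centring neither of these 2 passed, at 0.74 (adjusted p = 0.116) and 0.52 (adjusted p = 0.214).

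LOXL3, a related enzyme, read 290, 566 and 560 in the Dobermans against 249, 312 and 322 in the controls. Its change of 0.60 ± 0.25 (adjusted p = 0.0849) did not pass, nor did that of the paced hearts, 0.54 ± 0.25 (adjusted p = 0.172), whose signals of 420, 419 and 459 all exceeded the controls.

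ADAMTSL3 moved in opposite directions in Dobermans and paced hearts. The protein belongs to the ADAMTS-like group, which resembles ADAMTS proteases but lacks the protease domain. Signals were 103, 87.7 and 148 in the controls, 223, 498 and 441 in K, L and R, 115, 108, 110 and 134 in the Boxers and 34.1, 21.8 and 26.6 in the paced hearts. The Dobermans lay above and the paced hearts below all other arrays. Its change was 1.60 ± 0.32 in the Dobermans (adjusted p = 0.00878), -1.55 ± 0.32 in the paced hearts (adjusted p = 0.00912) and 0.06 ± 0.30 in the Boxers. Dobermans exceeded Boxers by 1.54 ± 0.30 (adjusted p = 0.00521). The paced call held under all 14 alternatives, with a change between -2.06 and -0.94; since the paced signals lie under the filter level of 108, its size depends on the pseudocount. With K alone the Doberman differences from controls and Boxers were 0.92 (adjusted p = 0.23) and 0.86 (adjusted p = 0.22). The gene passed the filter through its Doberman signals.

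Only 3 of 10 genes of the MMP and ADAMTS families were tested. MMP2, a gelatinase made by fibroblasts, was at 380, 401 and 286 in the controls, 356, 388 and 65.3 in K, L and R, 406, 400, 320 and 486 in the Boxers and 215, 465 and 198 in the paced hearts. R was low, the groups overlapped, and no change passed (-0.68 ± 0.50, 0.17 ± 0.46 and -0.35 ± 0.50). MMP24, a membrane-bound MMP, had paced signals of 132, 126 and 161 just under the controls at 167 to 242 (-0.52 ± 0.31, adjusted p = 0.289).

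All 3 TIMPs were tested and TIMP2 passed. TIMP2, which both inhibits MMPs and takes part in activating MMP2, rose in the Dobermans by 1.13 ± 0.30 (adjusted p = 0.0189), to 789, 791 and 613 from 473, 307 and 231. Boxers stood at 472, 401, 442 and 839 and paced hearts at 423, 375 and 500, both overlapping the controls, with changes of 0.65 ± 0.28 and 0.39 ± 0.30. The Doberman call was lost without L, P4 or P9, with array weights and after median centring (0.69), and with K alone the change was 1.25 (adjusted p = 0.134).

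TIMP1, the inducible TIMP, was high on 2 arrays of different groups. It stood at 2758 in K and 3514 in Boxer 4, against 760 and 610 in L and R, 903, 649 and 639 in Boxers 1 to 3, 619, 527 and 617 in the paced hearts and 402, 538 and 363 in the controls. Every Doberman and every Boxer lay above every control. The changes of 1.31 ± 0.59 (adjusted p = 0.109), 1.29 ± 0.56 (adjusted p = 0.639) and 0.44 ± 0.59 (adjusted p = 0.667) did not pass. TIMP3, a matrix-bound inhibitor, had changes of 0.18 ± 0.21, 0.14 ± 0.20 and 0.35 ± 0.21 on its chosen probe set. Its further tested probe sets went the other way in the Dobermans, at -0.69 ± 0.27, -0.74 ± 0.32, -0.56 ± 0.31 and -1.34 ± 0.44. In the same order they changed by -0.15, -0.34, -0.17 and -0.44 in the Boxers. With pacing they changed by -0.33, -0.29, 0.38 and -0.66. The median change of the 3 TIMPs was 1.13 in the Dobermans, 0.65 in the Boxers and 0.39 in the paced hearts, and 0.69, 0.71 and -0.11 after median centring.

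CCN2, connective tissue growth factor, an early target of transforming growth factor beta, was at 2151, 2524 and 1384 in the controls, 5440, 2519 and 2541 in K, L and R, 3262, 2720, 2671 and 3859 in the Boxers and 2993, 2708 and 3472 in the paced hearts. K was high, L lay just under the highest control, and all Boxers and all paced hearts exceeded the controls. None of the changes passed, at 0.73 ± 0.30 (adjusted p = 0.0781), 0.65 ± 0.28 (adjusted p = 0.628) and 0.63 ± 0.30 (adjusted p = 0.178); that of the Dobermans passed after quantile normalization (adjusted p = 0.0386). TGFB1 itself was at 510, 541 and 580 in the paced hearts, below 682, 892 and 1012 in the controls, with a change of -0.63 ± 0.23 (adjusted p = 0.09). It passed when the 6 arrays were modelled by themselves (adjusted p = 0.0321). In the Dobermans and Boxers its changes were -0.03 ± 0.23 and -0.20 ± 0.22.

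On the chosen probe sets Doberman K and Boxer 4 were the 2 highest arrays for COL1A1, COL3A1, FN1 and TIMP1, as the values above show. The summed signal of 12 macrophage and monocyte markers was 9570 in K and 10406 in Boxer 4, against 6396 in L and 2655 to 5355 on all other arrays. That of 8 fibroblast markers was 15991 in K and 17251 in Boxer 4. In the Boxers this sum was 13269 to 17251, above the controls at 8089 to 10920 and the paced hearts at 8141 to 10068; in L and R it was 14451 and 5096. The sum of 8 smooth muscle and pericyte markers was 45525 to 67858 in the Dobermans and 24544 to 36099 in the controls, and that of 6 endothelial markers 5388 to 13624 and 7001 to 9221. Of the 7 tested smooth muscle and pericyte markers 3 were called higher and 1 lower in the Dobermans, so the sum does not stand for each member. The cardiomyocyte sum was also highest in L and R, at 470385 and 441537. The part of these cells in the matrix gene results was not tested.

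Within a gene the probe sets disagreed in Dobermans L and R. Of the 33 tested genes 14 had further probe sets above the filter, 28 in all, and for each the log2 ratio to the gene's chosen probe set on the same array was set against its control mean. The median size of this ratio was 1.43 in L and 1.20 in R, against 0.29 in K, 0.11 to 0.23 in the controls, 0.29 to 0.50 in the Boxers and 0.26 to 0.42 in the paced hearts. It was over 1 for 20 of 28 probe sets in L and 15 in R, and for 0 to 5 on the other arrays.

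**Figure D5:**
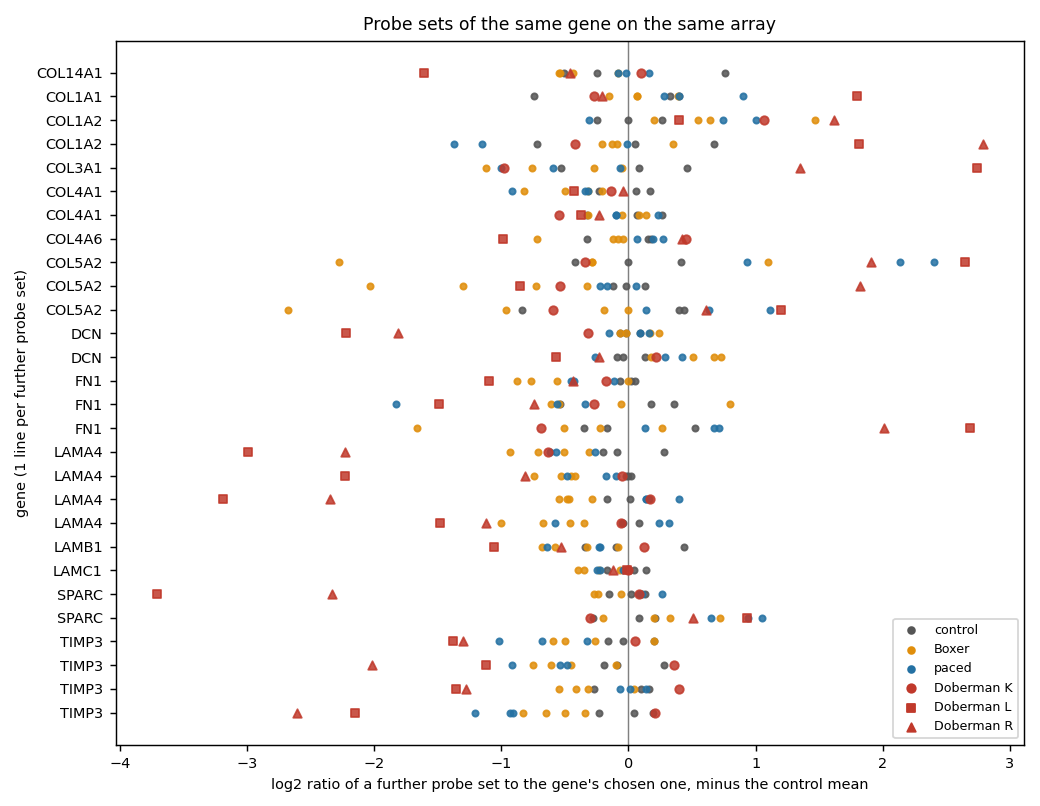
Log2 ratio of a further probe set to the chosen probe set of the same gene on the same array, minus its control mean (horizontal axis), for 28 further probe sets of 14 genes (rows). Dobermans L (squares) and R (triangles) lie far from 0 in many rows, as for SPARC at -3.71 and -2.33, while Doberman K (large circles) stays near the controls.

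SPARC shows the pattern. On a further probe set K stood at 4109 and the controls at 3210, 5486 and 2806, but L and R at 303 and 323, and this probe set was called lower in the Dobermans (-2.27 ± 0.70, adjusted p = 0.0335), whereas the chosen one was not called. Further probe sets of LAMA4 (-1.45 ± 0.49, adjusted p = 0.0446) and TIMP3 (-1.34 ± 0.44, adjusted p = 0.0419) were also called lower, and 1 of DCN was lower in Dobermans than in Boxers (-1.18 ± 0.26, adjusted p = 0.00785). That probe set of DCN read 5712, 2747 and 2644 in the Dobermans against 4967 to 6602 in the controls, where the chosen one read high in L and R. In the other direction, a further probe set of COL5A2 rose in the paced hearts (1.96 ± 0.56, adjusted p = 0.0353), to 320, 197 and 410 from 56.2, 142 and 29.6, while the chosen one did not pass. That probe set of COL5A2 lay just inside the filter, at a mean log2 of 7.15, and passed it through its paced signals. The further probe set had the same sign of change as the chosen one in 10 of 28 cases for Dobermans against controls, 20 for Boxers, 19 for paced hearts and 13 for Dobermans against Boxers. None was called against a call of the chosen probe set. LOXL2, COL22A1, COL2A1, COL5A1, COL17A1, ADAMTSL3, TIMP2 and THBS1 had no further tested probe set. DCN and LAMB1 had some, none of which was called against controls. Those of DCN changed by -0.78 ± 0.28 and 0.47 ± 0.28 in the Dobermans. That of LAMB1 changed by 0.68 ± 0.26 with pacing (adjusted p = 0.101 in limma). Each call of a matrix gene thus rests on 1 probe set.

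The 19 matrix genes under the filter were dim on most arrays, and the size of their changes depends on the pseudocount. BGN, the small proteoglycan biglycan, read 292, 297 and 299 in the paced hearts, 52, 107 and 32.3 in the controls, 47.7, 33.5 and 28.2 in the Dobermans and 53.4 to 191 in the Boxers. ADAMTS12, a protease named here after its values were seen, read 306, 199 and 273 in the paced hearts and 69.5 or less on every other array. Paced hearts lay above all other arrays for both genes. MMP9, a gelatinase of white blood cells, read 136, 245 and 170 in the paced hearts, 167, 202 and 86.3 in the Dobermans and 14.9 to 98.9 in the controls. A further probe set of MMP9, also under the filter, had the opposite order, with 32.2, 24.9 and 33.9 in the paced hearts and 61 to 148 in the controls. On another, likewise under the filter, the paced hearts (220, 221 and 99.4) lay above the controls (29.1 to 38.1). In a fit without the filter 10 of 52 matrix genes passed with pacing, 9 of them higher, while 14.1% of all 6540 genes passed, 9.16% as higher and 4.92% as lower. Among the 10 were ADAMTS12 (2.50, adjusted p = 0.00341), BGN (2.08, adjusted p = 0.00569) and MMP9 (1.74, adjusted p = 0.0263). In that fit COL5A3 (1.64, adjusted p = 0.0219), another type V chain, and THBS2 (1.35, adjusted p = 0.034), another thrombospondin, were higher in the Dobermans than in controls.

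COL6A3, a chain of the type VI filaments, read 13.3 to 107 over all arrays and MMP14, a membrane-bound collagenase, 24.6 to 103. Neither passed against controls. The 12 others were COL4A3, COL4A4, COL4A5, COL7A1, COL26A1, COL27A1, LAMA1, LAMA3, ADAMTS6, MMP3, MMP13 and MMP23.

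Other genes of matrix biology were read from lists of related function. In each list the count of calls is to be set against the shares of all genes called, 11.9% as higher and 14.1% as lower for Dobermans against controls, 5.19% and 4.05% for paced hearts and 16.8% and 17.4% for Dobermans against Boxers. These shares are those of the deposited scale and not of the other scalings. By limma 0 genes of these lists passed in the Boxers against controls on the deposited scale, and 0 after quantile normalization or median centring.

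Of 9 tested genes of transforming growth factor beta signalling, 2 rose in the Dobermans and 0 fell. They were the type I receptor ACVRL1 (0.86 ± 0.28, adjusted p = 0.0382) and LTBP3, which binds the latent growth factor (1.08 ± 0.29, adjusted p = 0.0211). Both also exceeded the Boxers, by 0.97 ± 0.26 and 1.18 ± 0.27. After median centring 0 of the 9 passed against controls, and 1 was higher and 4 lower against Boxers. Neither gene passed with K alone. In the paced hearts 0 passed, or 2 as lower after median centring. The medians of the 9 against controls were 0.13 in Dobermans, 0.06 in Boxers and 0.02 in paced hearts.

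Among 13 matrix receptors 3 rose and 4 fell in the Dobermans. The largest changes were those of CD36 (-2.94 ± 0.93), which binds thrombospondin, of the integrin chains ITGB1 (-1.79 ± 0.59) and ITGA6 (-1.19 ± 0.28), and of ITGA5 (1.22 ± 0.30), a fibronectin receptor chain. The split was 1 higher and 4 lower after median centring and 3 higher and 2 lower after quantile normalization. Against Boxers 0 were higher and 4 lower, namely CD36, ITGB1, ITGA6 and the thrombospondin receptor CD47. With K alone none of the 7 calls against controls held and ITGB1 turned positive, and against Boxers both ITGB1 and CD36 did. In the paced hearts the collagen receptor DDR1 rose by 1.44 ± 0.34 (adjusted p = 0.0155) and held under both scalings, with 4 receptors lower after median centring.

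Of 12 genes of collagen processing 1 rose in the Dobermans, P4HA2 (0.77 ± 0.22), a prolyl hydroxylase. After median centring the split was 0 higher and 3 lower, and P4HA2 did not pass. Against Boxers BMP1, which trims procollagen, was higher (0.84 ± 0.22), and 4 genes were lower, among them CRTAP (-1.20 ± 0.38), SEC23A (-0.92 ± 0.24) and KDELR3 (-0.79 ± 0.17), of collagen folding and export; after either scaling the 4 remained and BMP1 did not. None of these passed without Dobermans L and R.

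Of 21 other matrix proteins 5 rose in the Dobermans and 0 fell. The largest changes were those of MFAP4 (1.90 ± 0.34), EFEMP2 (1.37 ± 0.33) and EMILIN1 (1.20 ± 0.40), of elastic fibres, and of CILP (1.85 ± 0.47). After median centring 3 passed (MFAP4, EFEMP2 and CILP), with K alone only MFAP4 of the 5 did, and without K the split was 6 higher and 4 lower. MFAP4 is also 1 of the fibroblast markers. Against Boxers 3 were higher and 3 lower, with HSPG2, the perlecan of basement membranes (0.98 ± 0.33), and EMILIN1 (1.58 ± 0.37) higher and the microfibril and fibulin genes MFAP5 (-1.25 ± 0.37) and EFEMP1 (-2.60 ± 0.82) lower; the split was 1 and 4 after median centring, and none of the 6 passed with K alone. In the paced hearts MFAP4 (1.20 ± 0.34) and SPP1, osteopontin (2.58 ± 0.79), rose, and neither passed under the other scalings.

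Of 6 other matrix proteases the cathepsins CTSB (1.22 ± 0.24) and CTSK (1.14 ± 0.34) rose and the membrane proteases ADAM9 (-1.14 ± 0.33) and ADAM10 (-0.58 ± 0.18) fell in the Dobermans. After median centring CTSK no longer passed, and 0 of the 4 passed with K alone.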

How the data were processed

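RNA extracted with Trizol was labelled for the canine Affymetrix array, and the authors deposited MAS5 signal intensities on a linear scale; per the submitters' processing notes the tool was MAS5, whose version and settings are not given in the sources used here. Trimmed by 2%, the mean signal came to about 500 on every array. From the deposited intensities, 77 control probe sets were set aside, and 14302 of 23836 others had a mean log2(signal + 16) at or above the 40th percentile. Gene symbols came from the platform annotation (1 symbol for 10549 probe sets, several for 138, none for 13149). limma 3.58.1 (R 4.3.3) fitted 1 mean per group with moderated variances and an intensity trend (9 residual degrees of freedom). The procedure was tested on simulated data. The matrix genes and all gene lists were chosen with earlier results of these data known.

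Genes were named when called, when on a list of main matrix genes whatever their result, or when among the 3 smallest p-values of a comparison without a call. Of each related list, up to 4 called genes per comparison were named. Alternatives were pseudocounts of 1 and 64, quantile normalization or median centring of the arrays, a filter at the 70th percentile or none, a fit of the compared groups, array weights, the GAPDH ratio as a covariate, another rule for the probe set of a gene, and leaving out each sample or Dobermans L and R. Where 1 array was left in a group, the pooled spread assumes that it varies like the other groups. Precision is limited by 3 or 4 arrays per group. Group values in the text are single arrays, and errors are SEs of the fitted changes. No coordinates or sequences were used.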

Additional observations from a re-analysis of the deposited data

Results flagged for a closer look

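Among the 33 tested matrix genes in the 4 Boxers, 2 arrays lay far from the other 3 on the log2 scale; chance gives about 1 in 20 groups. COL5A1 was 1194 in Boxer 1 against 1088 to 1104 in the others. DCN was 10408 in Boxer 2 against 13426 to 13985. On the linear scale Boxer 4 also lay apart for FN1 (11820 against 1968 to 2877), TIMP1 (3514 against 639 to 903) and TIMP2 (839 against 401 to 472).

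The change from controls differed between Dobermans and Boxers for 5 of 33 genes in the direct test of limma with Benjamini-Hochberg adjustment. These were 15.2% of the matrix genes, a smaller share than the 34.2% of all genes. The difference was 1.54 for ADAMTSL3, 1.18 for COL22A1, 1.30 for COL2A1, 0.58 for COL5A1 and 1.03 for LOXL2. ADAMTSL3 passed the filter through its Doberman signals. In a fit without Dobermans L and R none of the 5 passed.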

How the results depend on the processing

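For Dobermans against controls (8 calls) the count was 5 after median centring, 0 in a fit of the compared groups, 0 once the GAPDH ratio was added and 2 without Dobermans L and R, and 4 to 14 when 1 sample was left out. For Boxers (0 calls) it was 1 in a fit of the compared groups and 1 with array weights, COL12A1 both times, and 0 to 0 when 1 sample was left out. For paced hearts (4 calls) it was 8 after median centring, 10 without the filter, 1 with a filter at the 70th percentile, 8 in a fit of the compared groups, 9 with array weights and 7 with the GAPDH ratio, and 1 to 4 when 1 sample was left out. For Dobermans against Boxers (5 calls) it was 11 after median centring, 12 without the filter, 3 with a filter at the 70th percentile, 8 with array weights, 0 with the GAPDH ratio and 0 without L and R, and 3 to 14 when 1 sample was left out. The GAPDH ratio varied mainly within the Dobermans, so a call lost with it cannot tell RNA integrity from group. Quantile normalization, both other pseudocounts and the other rule for the probe set kept each of the 4 counts within 1.5 times. No call of a matrix gene changed direction under the alternatives run for it. Only ADAMTSL3 in paced hearts passed in all of its own, 14 in number; it was not tested under the filter at the 70th percentile. Of the related lists, ITGB1 (against controls and Boxers) and CD36 and ADAM9 (against Boxers) changed direction without L and R. Apart from the samples left out and the smaller fits, the cause of these differences was not tested. No paired analysis was possible because each group has its own style of sample name and nothing in the labels ties a sample of one group to a sample of another. Dim probe sets limit what can be said of MMPs, of which 2 were tested.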
